A study of Homo sapiens with 6 samples.

Results

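The genes described here are 9 genes of the p53 response, MDM2, MDM4, SESN1, ZMAT3, FDXR, TP53INP1, BTG2, GDF15 and TP53I3. They were taken by symbol from the 20348 genes of a gene expression table and were chosen with earlier results of these data known. The table comes from MV4-11, an established human cell line of acute myeloid leukemia (AML) that grows in suspension. RNA-seq of bead-captured mRNA was made from 3 untreated samples (Control) and from 3 samples that received WNK463 at 1 μM for 48 h. WNK463 is a small molecule that inhibits the WNK kinases, and the comparison asks how the RNA levels of these genes differ between the 2 groups. Both groups are the same line, no genetic change is given for either, and 1 dose and 1 time were sampled. Nothing states that the 3 samples of a group came from separate cultures, so the p-values measure only the spread between these samples.

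The p53 protein is a transcription factor that binds DNA and switches on genes that halt the cell cycle, repair DNA, alter metabolism or start cell death. MDM2 sits in a feedback loop, because it is a p53 target and its protein marks p53 for destruction. Much of the control of p53 acts on the protein, through its stability and its modification, which an RNA measurement does not read. Many p53 targets are also driven by other transcription factors.

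Total counts per sample lay between 14915745 and 17411780. A CPM is 1 count in 1000000 counts of the TMM-scaled library, and comparisons between genes use TPM, which also divides by transcript length. The TMM factors were 0.944 to 0.951 in Control and 1.05 to 1.06 with WNK463, so the 2 groups are scaled differently from scaling by total counts, under which the median log2 fold change over the tested genes was 0.17 in place of 0.02. Of 8 myeloid leukemia markers 8 were tested, of which 5 were higher and 2 lower after WNK463 at an adjusted p below 0.05 from edgeR. Of all tested genes 35.5% were higher and 35.3% lower by this limit. Of 10 markers of other lineages 1 was tested, NKG7, which was higher with a log2 fold change of 0.46, and the erythroid genes HBA1, HBB and GATA1 were at 0 in each library. Of 14 monocyte and macrophage markers 10 were tested, with 8 higher and 2 lower. Beside 9.62% and 5.55% of all tested genes, 6 and 1 of these markers also passed a log2 fold change of 1 in size. Their summed level was 1957 to 2008 CPM in Control and 1850 to 1989 CPM with WNK463, a sum in which LYZ fell from 1355 to 291 CPM and CTSD rose from 387 to 1337 CPM (means, n = 3 per group), while the defining markers CD163 and MRC1 had at most 1 count in any library. The part of these marker changes in the results below was not tested. In bulk RNA, fewer cells that express a gene and less of its RNA per cell cannot be told apart.

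Of the 9 genes 8 passed the filter on low counts, and GDF15 did not. With edgeR's quasi-likelihood test at an adjusted p below 0.05, 5 of the 8 were higher after WNK463 and 1 was lower. TP53I3, TP53INP1, BTG2 and ZMAT3 were higher by 1.69-fold to 2.07-fold, MDM4 was higher by 1.21-fold, FDXR was lower, and MDM2 and SESN1 did not pass the test. These counts stand against a large response of the whole transcriptome, in which 70.8% of the 11973 tested genes passed the same limit, 35.5% of the tested genes as higher and 35.3% as lower. The shares of the 8 were 62.5% higher and 12.5% lower, and their median log2 fold change was 0.52, beside 0.02 over all tested genes. With scaling by total counts the split was 6 higher and 0 lower, where the median over all tested genes was 0.17. The share of all tested genes called under that scaling was not taken. With a log2 fold change past 1 in size as a second limit, 1 of the 8 was called, TP53I3, beside 15.2% of all tested genes. The 3 WNK463 values lay above the 3 Control values in 4 genes and below them in 0, beside 37.1% and 36.4% of all tested genes. For 3 samples against 3 the smallest p of an exact two-sided permutation test is 0.10. Any gene whose groups do not overlap reaches it by construction, so for these 4 genes it adds nothing to the separation.

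**Figure D1:**
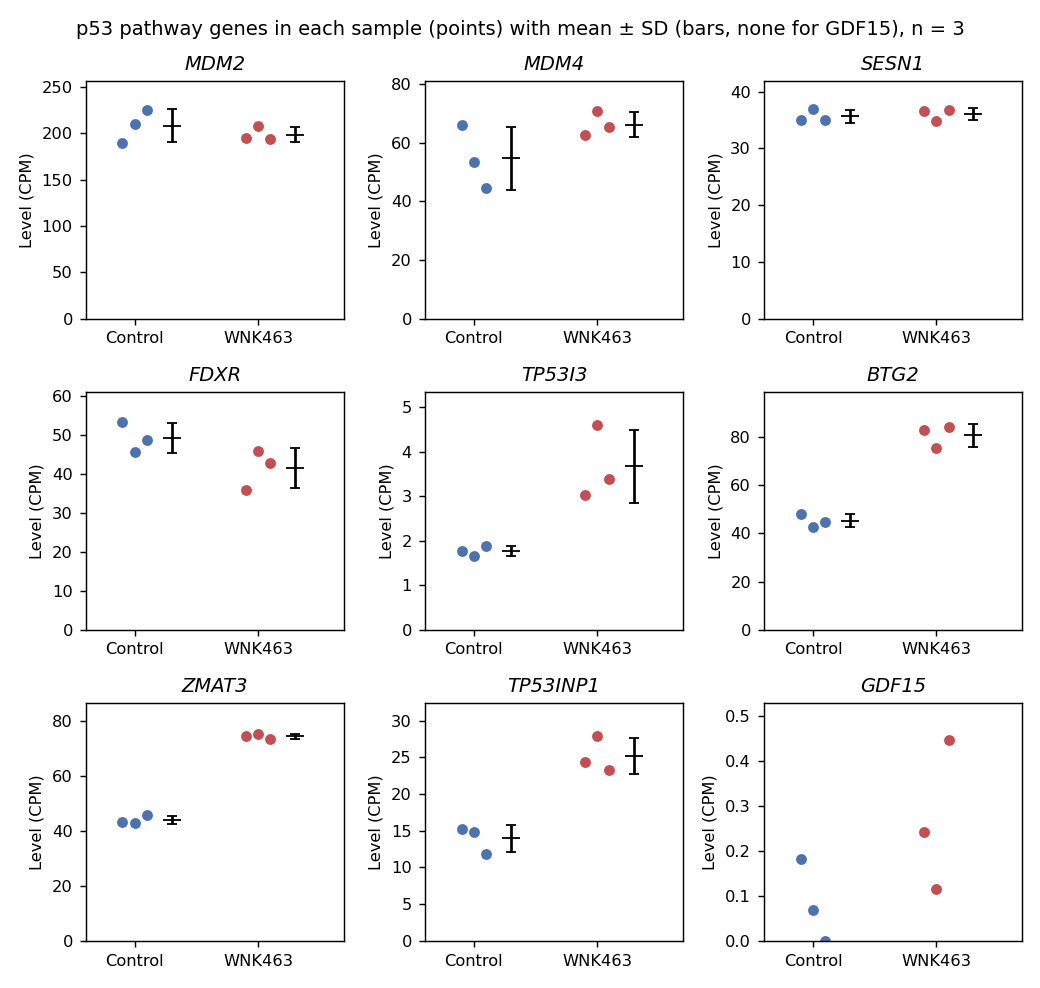
Level of each of the 9 genes in CPM (vertical axes, each from 0) in the 3 Control and 3 WNK463 samples, with points for single samples in the order of their replicate numbers and bars for mean ± SD in all but GDF15. In BTG2, ZMAT3, TP53INP1 and TP53I3 the WNK463 points lie above the Control points, while in MDM2, MDM4, SESN1, FDXR and GDF15 the points of the 2 groups overlap.

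The first pair of genes encodes the direct inhibitors of p53. MDM2 (ENSG00000135679, chromosome 12 from 68808176 to 68850686, plus strand, GRCh38) encodes the ubiquitin ligase of p53, and its second promoter, inside the gene, is a textbook p53 target. It had 189.6, 210.4 and 225.2 CPM in Control and 195.3, 207.7 and 193.7 CPM with WNK463. The treated samples lay within the range of the Control samples, at 208.4 ± 17.9 CPM in Control and 198.9 ± 7.65 CPM with WNK463 (SD, n = 3 per group). The log2 fold change was -0.07, with a standard error of 0.06, a 95% interval from -0.19 to 0.06 and an adjusted p of 0.31 from edgeR. The upper bound of this interval lies below the lower bounds of 0.70 for BTG2 and 0.64 for ZMAT3. Its sign depended on the scaling, since total counts gave 0.08 and limma on log2(TPM + 1) gave 0.10, with adjusted p-values of 0.22 and 0.23. Without the first Control sample MDM2 was called lower, with a log2 fold change of -0.14 and an adjusted p of 0.015 from edgeR. MDM2 shares exon bases with 3 other annotated genes, on both strands, and the use of strand in the counting is not given in the sources used here, so reads of these genes may not be told apart.

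The stretch of the second MDM2 promoter that holds its 2 closest matches to the p53 site is shown because p53 is known to act on this part of the gene. The RNA level above is that of the whole gene, so RNA from this promoter was not measured apart. The stretch lies at chr12:68808913-68808990 on the plus strand. Its capitals mark the 2 matches, each of 20 bases, which are in an intron of 7 of the 34 annotated MDM2 transcripts and in no exon of the gene.
MDM2 second promoter: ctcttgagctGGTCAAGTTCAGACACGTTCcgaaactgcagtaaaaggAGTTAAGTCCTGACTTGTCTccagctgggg
The upstream match differs from the p53 consensus at 2 bases and the downstream match at 3 bases. RefSeq gives 2 start sites for this promoter, and the matches end 75 and 37 bases before the first of them and 82 and 44 bases before the other.

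MDM4 (ENSG00000198625, chromosome 1 from 204516379 to 204558120, plus strand) encodes the relative of MDM2 that binds p53 and blocks its activity without being an efficient ligase. Its levels were 66.1, 53.3 and 44.6 CPM in Control and 62.4, 70.6 and 65.2 CPM with WNK463. The Control samples were spread widely, and the highest of them lay inside the treated range. The means were 54.7 ± 10.8 and 66.1 ± 4.17 CPM (SD, n = 3 per group), and the log2 fold change was 0.27 with a standard error of 0.10 and an adjusted p of 0.020 from edgeR. This call was lost with DESeq2, at an adjusted p of 0.16, and with limma on log2(TPM + 1), at 0.13. It was also lost without the second Control sample, without the third Control sample or without the second WNK463 sample, with log2 fold changes of 0.24, 0.13 and 0.22. The count that 1 TPM stood for, which follows the length of the transcripts assigned to the gene, varied 1.41-fold over the 6 samples for MDM4. The median gene varied 1.07-fold, and 7.11% of 10608 genes varied more. The part of this in the change of MDM4 was not tested.

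The next 3 genes encode enzymes and a stress regulator of metabolism, and they went 3 different ways. TP53I3 (ENSG00000115129, chromosome 2 from 24077433 to 24085861, minus strand) encodes a quinone reductase that p53 induces. Its counts were low, at 29, 24 and 31 in Control and 50, 79 and 53 with WNK463. In CPM these are 1.77, 1.65 and 1.89 against 3.02, 4.59 and 3.38. Every treated sample lay above every Control sample, and the treated samples differed among themselves by more than the Control samples did, at 3.67 ± 0.824 against 1.77 ± 0.122 CPM (SD, n = 3 per group). The log2 fold change was 1.05 (SE 0.25, edgeR adjusted p = 0.0012), with a 95% interval from 0.52 to 1.58. The call held without any single sample, but the log2 fold change was 0.99 without the second Control sample and 0.85 without the second WNK463 sample, below the limit of 1. TP53I3 shares 80 exon bases with FAM228B on the opposite strand, so, as for MDM2, reads of that gene may not be told apart.

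FDXR (ENSG00000161513, chromosome 17 from 74862497 to 74873031, minus strand) encodes ferredoxin reductase, the mitochondrial enzyme that passes electrons from NADPH to the ferredoxins. It had 53.4, 45.6 and 48.8 CPM in Control and 35.8, 45.9 and 42.9 CPM with WNK463. The first treated sample was the lowest of the 6, and the second lay inside the Control range. The means were 49.3 ± 3.91 and 41.5 ± 5.17 CPM (SD, n = 3 per group), and FDXR was called lower, with a log2 fold change of -0.25, a standard error of 0.08 and an adjusted p of 0.015 from edgeR. Without the first WNK463 sample the call was lost, at -0.15 with an adjusted p of 0.11. It was also lost with total counts, at -0.10, and with limma on log2(TPM + 1), at -0.01, and in TPM the group means were 49.8 ± 3.54 and 49.97 ± 8.28 (SD, n = 3 per group).

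SESN1 (ENSG00000080546, chromosome 6 from 108986437 to 109094819, minus strand) encodes sestrin 1, a stress-induced protein that restrains mTORC1 signalling. Its levels were 35.1, 37.0 and 35.0 CPM in Control and 36.5, 34.8 and 36.8 CPM with WNK463. The 6 samples were close together and the groups overlapped. The log2 fold change was 0.01 with a standard error of 0.07 and an adjusted p of 0.85 from edgeR, and its 95% interval ran from -0.13 to 0.16. Scaling by total counts gave 0.17 and an adjusted p of 0.035, which is beside a shift of 0.15 in the median of the tested genes under this scaling. SESN1 shares 363 exon bases with AL390208.1 on the opposite strand, so reads of that gene may not be told apart either.

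BTG2 and ZMAT3 encode regulators of growth and of RNA, and both rose in each scaling and with each sample left out. BTG2 (ENSG00000159388, chromosome 1 from 203305491 to 203309602, plus strand) encodes an antiproliferative protein that brings the CCR4-NOT deadenylase to mRNAs. It had 48.0, 42.7 and 44.8 CPM in Control and 82.9, 75.3 and 84.1 CPM with WNK463. The lowest treated sample was well above the highest Control sample, and the means were 45.2 ± 2.71 and 80.8 ± 4.73 CPM (SD, n = 3 per group). The log2 fold change was 0.84 (SE 0.07, edgeR adjusted p = 2.7e-09), a 1.79-fold rise. ZMAT3 (ENSG00000172667, chromosome 3 from 179017223 to 179072279, minus strand) encodes a zinc finger protein that binds RNA and acts on splicing. Its levels were 43.1, 43.0 and 45.7 CPM in Control and 74.5, 75.2 and 73.5 CPM with WNK463. The 3 samples of each group nearly coincided, with an SD of 1.55 CPM around 44.0 in Control and of 0.817 CPM around 74.4 with WNK463 (n = 3 per group). The log2 fold change was 0.76 (SE 0.06, edgeR adjusted p = 2.3e-09), a 1.69-fold rise.

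TP53INP1 (ENSG00000164938, chromosome 8 from 94925972 to 94949411, minus strand) encodes a protein that takes part in autophagy and in the phosphorylation of p53. It had 15.3, 14.8 and 11.9 CPM in Control and 24.4, 28.0 and 23.2 CPM with WNK463. The groups did not overlap, with means of 14.0 ± 1.84 and 25.2 ± 2.46 CPM (SD, n = 3 per group). The log2 fold change was 0.85 (SE 0.11, edgeR adjusted p = 1.3e-06), a 1.80-fold rise. GDF15 (ENSG00000130513, chromosome 19 from 18374731 to 18389176, plus strand) encodes a secreted cytokine of the TGF-beta superfamily. Its counts were 3, 1 and 0 in Control and 4, 2 and 7 with WNK463, which is near the limit of detection. Over the groups this was 4 counts against 13, and 3 counts correspond to 0.174 to 0.206 CPM in these libraries. When low genes were kept in the fit, the log2 fold change of GDF15 had a 95% interval from -0.50 to 3.61 and an adjusted p of 0.20 from edgeR, so a difference in GDF15 was not detected.

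**Figure D2:**
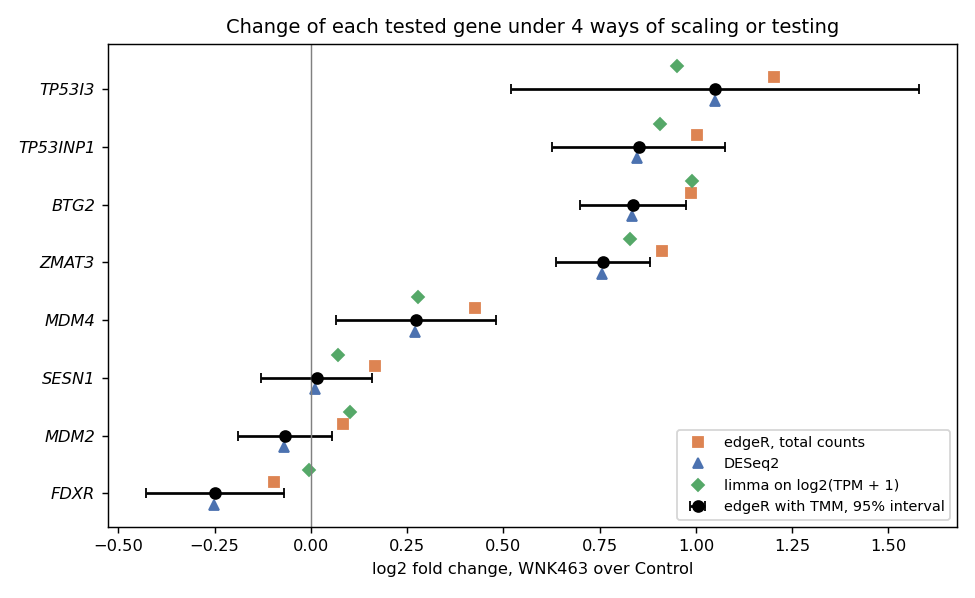
Log2 fold change of WNK463 over Control (horizontal axis) for the 8 tested genes, with edgeR and TMM as black points with 95% intervals, and with total counts, DESeq2 and limma on log2(TPM + 1) as coloured points. TP53I3, TP53INP1, BTG2 and ZMAT3 stay above 0.70 in each, whereas the points of MDM2 lie on both sides of 0 and those of FDXR run from -0.25 to -0.01.

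TP53I3, BTG2, ZMAT3 and TP53INP1 kept their call in 13 of 13 alternatives, with log2 fold changes of 0.85 to 1.20, 0.79 to 1.01, 0.73 to 0.91 and 0.73 to 1.03. The other 4 tested genes changed their call or their sign in at least 1 alternative. MDM2 kept both in 9 of 13, FDXR in 9, SESN1 in 8 and MDM4 in 7. Over these alternatives the log2 fold changes ran from -0.14 to 0.10 for MDM2, from -0.33 to -0.01 for FDXR, from -0.01 to 0.17 for SESN1 and from 0.13 to 0.43 for MDM4.

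Per length, MDM2 was the highest of the 9 genes in both groups, at 78.5 ± 6.51 TPM in Control and 84.1 ± 4.42 TPM with WNK463 (SD, n = 3 per group). In Control it was followed by FDXR at 49.8, BTG2 at 31.2, SESN1 at 22.8, MDM4 at 14.6, ZMAT3 at 11.0, TP53INP1 at 4.62, TP53I3 at 2.98 and GDF15 at 0.129 TPM. Each of these levels lay above the next one without overlap between samples. With WNK463 the order was changed by the genes that rose. BTG2, at 63.1 ± 3.20 TPM, stood above FDXR, at 49.97 ± 8.28 TPM, and ZMAT3, at 20.3 ± 0.913 TPM, reached the range of MDM4, at 17.8 ± 2.45 TPM (SD, n = 3 per group). TP53INP1 and TP53I3 rose to 9.53 and 6.77 TPM and stayed below the other tested genes. The group means of all 9 genes were higher with WNK463 in TPM, and those of 7 were higher in CPM, the exceptions being MDM2 and FDXR. Over all tested genes the median log2 fold change was 0.16 with limma on log2(TPM + 1) and 0.02 with TMM-scaled counts. The share of all genes with a higher mean was not taken, so the count of 9 is not read as a result about these genes. The 9 include GDF15, which was not tested, and FDXR, at 49.8 TPM in Control and 49.97 TPM with WNK463.

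**Figure D3:**
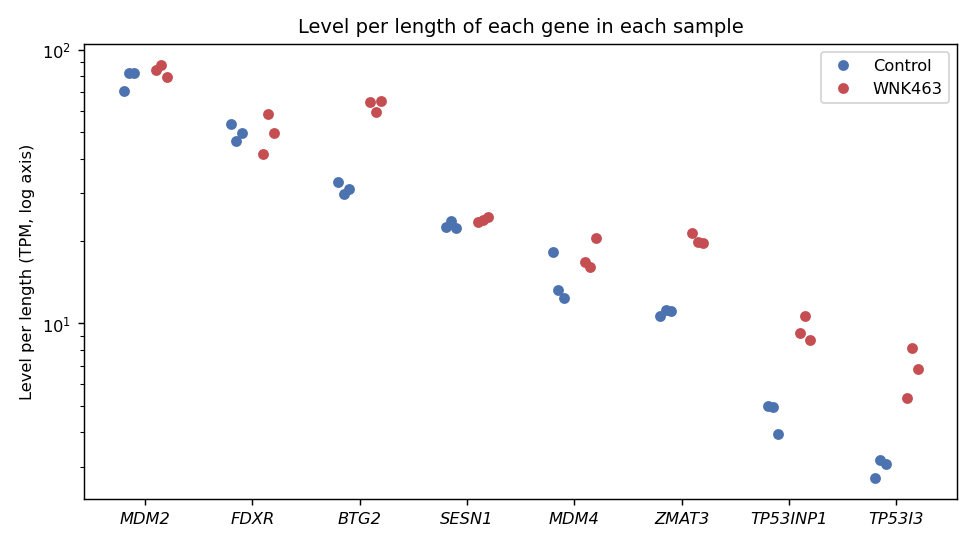
TPM of each tested gene in each sample (vertical axis, logarithmic), with genes in the order of their Control means, Control in blue and WNK463 in red. MDM2 is at the top in both groups at 71.0 to 88.3 TPM, and the red points of BTG2 lie above those of FDXR while the blue points of BTG2 lie below those of FDXR.

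Promoter sequences were searched for the p53 consensus, which is made of a pair of half-sites of 10 bases, each with 3 purines, a C, 2 bases that are A or T, a G and 3 pyrimidines. It reads the same on both strands. RefSeq windows (GRCh38.p14) from 250 bases before to 50 bases after each start site matched 8 of the 9 genes, and TP53INP1 had none. With both half-site cores intact, a spacer of at most 13 bases and at most 2 mismatches, 0 of the 8 genes had a full site, beside 1.81% of 27305 genes and 1.46% of their 35116 windows. With at most 3 mismatches SESN1 and GDF15 had one, beside 5.53% of genes and 4.49% of windows. Neither limit can find the 2 MDM2 matches shown above, because each has a half-site core with a base outside the consensus. These counts therefore do not show that p53 sites are absent. A rule chosen after the MDM2 windows had been read, with mismatches at any position and no spacer, gave the closest 20 bases of each gene, which are shown as the sequence of each gene nearest to the p53 site. Capitals mark the bases that match the consensus, and each sequence is read along the strand of its gene.
MDM2, 2 mismatches, chr12:68808923-68808942: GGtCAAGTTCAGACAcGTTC
SESN1, 3 mismatches, chr6:109009018-109009037: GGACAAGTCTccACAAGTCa
FDXR, 3 mismatches, chr17:74872996-74873015: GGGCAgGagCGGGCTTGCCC
GDF15, 3 mismatches, chr19:18386186-18386205: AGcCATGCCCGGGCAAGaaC
BTG2, 4 mismatches, chr1:203305505-203305524: GGGaAAGTCCGGGCAgagCC
ZMAT3, 4 mismatches, chr3:179071873-179071892: GGGCcTGCTCcGcCAAGCaC
MDM4, 5 mismatches, chr1:204516186-204516205: tcACAAGaCCctGCAAGTCC
TP53I3, 5 mismatches, chr2:24084881-24084900: AGGgTgGTTCtGctTAGCCC
Among all windows, 0.649% held a stretch with at most 2 mismatches, 5.2% with at most 3, 26.0% with at most 4 and 70.5% with at most 5. The genes were searched over different numbers of windows, 4 for MDM2, 3 for SESN1, 2 for FDXR and for ZMAT3 and 1 for each of the others, so their numbers of mismatches cannot be compared with each other. By the GENCODE 29 annotation the MDM2 and SESN1 stretches lie in introns, those of FDXR, GDF15, BTG2, ZMAT3 and TP53I3 in exons, and that of MDM4 upstream of the gene. The FDXR, ZMAT3 and TP53I3 stretches nevertheless lie before the RefSeq start of their window, and that of BTG2 spans it. A match is a description of these windows only, and sites outside them were not searched.

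Beyond these 9 genes, 55 other p53 targets were listed and 50 were tested. With edgeR's test 17 were higher (34%), 19 were lower (38%) and 14 did not pass, beside 35.5% and 35.3% of all tested genes, and their median log2 fold change was 0.02, the same as over all tested genes. With total counts the split was 25 higher and 16 lower, where the median over all tested genes was 0.17. The share of all tested genes called under that scaling was not taken. The cell cycle group had 3 higher and 2 lower of 5. CDKN1A, which encodes the cyclin-dependent kinase inhibitor p21, rose from 163.1 ± 2.62 to 214.4 ± 6.10 CPM (SD, n = 3 per group), with a log2 fold change of 0.39 (edgeR adjusted p = 6.7e-07). PLK2, a polo-like kinase, and E2F7, a repressor of E2F targets, were lower, with log2 fold changes of -0.50 and -0.78. Among feedback genes, RCHY1, another ubiquitin ligase of p53, was higher by 0.58 on the log2 scale, CCNG1 (cyclin G1) fell by 0.40, and PPM1D, the phosphatase that dephosphorylates p53, had a log2 fold change of -0.02 and did not pass.

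The apoptosis group had 2 higher and 5 lower of 12 tested genes, beside 35.5% and 35.3% of all tested genes. BAX, the pore former of the mitochondrial membrane, went from 74.4 ± 2.92 to 52.5 ± 3.52 CPM (SD, n = 3 per group), with a log2 fold change of -0.50 in counts, but with limma on log2(TPM + 1) it was -0.11 and did not pass. The nuclease gene AEN and PIDD1, the scaffold of the caspase-2 platform, were lower by log2 fold changes of -0.59 and -0.63. The 2 that were higher, named here after their values were seen, were BBC3 (PUMA) and FAS, with log2 fold changes of 0.61 and 0.53. In DNA repair and nucleotide supply 3 were higher and 3 lower of 6. PCNA, the sliding clamp of DNA replication, fell by 0.82 on the log2 scale, from 375.0 ± 8.36 to 212.8 ± 11.6 CPM (SD, n = 3 per group). RRM2B, a p53-induced subunit of ribonucleotide reductase, and REV3L, the catalytic subunit of DNA polymerase zeta, were higher by 0.46 and 0.55 on that scale.

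The metabolism, redox and autophagy group had 3 higher and 2 lower of 11, beside 35.5% and 35.3% of all tested genes. FUCA1, a lysosomal fucosidase, rose from 59.5 ± 2.02 to 129.6 ± 2.88 CPM and TIGAR, which lowers glycolytic flux, from 19.0 ± 2.15 to 39.0 ± 2.83 CPM (SD, n = 3 per group). Their log2 fold changes were 1.12 and 1.03, with adjusted p-values of 4.2e-12 and 1.2e-08 from edgeR. ALDH4A1, an enzyme of proline breakdown, was lower by a log2 fold change of -0.45. Of the 13 tested genes with other functions 5 were higher and 6 lower. SERTAD1, a regulator of E2F activity, and SUSD6 passed the limit of 1 upward, at 1.36 and 1.04. ASCC3, a helicase of the ASC-1 complex, was lower at -0.60, and the cytokine gene LIF was lower at -2.19 from few reads, 22, 11 and 21 counts in Control against 3, 4 and 5 with WNK463. Over the 50 tested genes 4 were higher and 1 was lower past this limit, beside 9.62% and 5.55% of all tested genes.

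**Figure D4:**
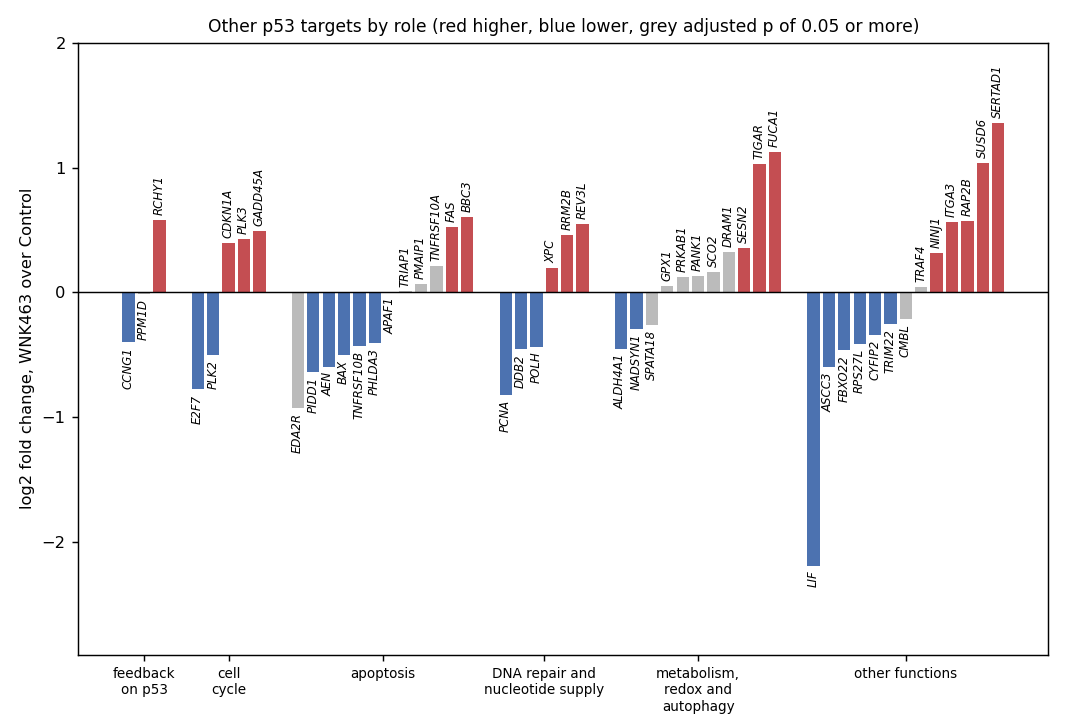
Log2 fold change of WNK463 over Control from edgeR (vertical axis) for the 50 other p53 targets tested, grouped by role and ordered within each role. Red bars are the 17 genes called higher, blue bars the 19 called lower and grey bars the 14 that did not pass, and each role has bars in both directions.

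The pattern of MDM2 over the 6 samples was closest to those of APAF1, TRIAP1 and PPM1D among these 50 genes, with distances of 0.237, 0.250 and 0.271 between the centred log2 CPM values. Their log2 fold changes were -0.002, 0.01 and -0.02, and a gene without a group difference is near to others of that kind by the way the distance is built.

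Genes that act on the p53 protein were listed apart, and 19 of 19 were tested. With TMM scaling 3 were higher (15.8%) and 11 lower (57.9%), beside 35.5% and 35.3% of all tested genes. The median log2 fold change of the 19 was -0.21. With total counts, however, 5 were higher and 5 lower, and the share of all tested genes under that scaling was not taken. Among upstream kinases CHEK1, which acts in the replication checkpoint, fell from 56.9 ± 2.56 to 28.3 ± 1.16 CPM (SD, n = 3 per group), with a log2 fold change of -1.01 (edgeR adjusted p = 3.9e-10). CHEK2 was lower at -0.33 and ATM higher at 0.23. SIRT1, the deacetylase of p53, rose from 43.9 ± 3.13 to 75.0 ± 0.376 CPM (SD, n = 3 per group), with a log2 fold change of 0.77. TP53BP1, a partner of p53 in the response to DNA breaks, was lower at -0.59, and the acetyltransferase gene EP300 was lower at -0.30. The directions and calls of these 6 genes were the same with total counts and with limma on log2(TPM + 1).

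The 5 genes whose products bind MDM2 were called lower with TMM scaling, beside 35.3% of all tested genes. The ribosomal protein genes RPL5 and RPL11 had log2 fold changes of -0.29 and -0.22, and CDKN2A, among whose products is ARF, had -0.31. The CDKN2A value is that of the whole gene, so ARF RNA was not measured apart. With total counts RPL5 was still called, at -0.14, while RPL11 and CDKN2A were not, at -0.07 and -0.16. With limma on log2(TPM + 1) none of these 3 was called. In the ubiquitin system 0 of 4 genes were called with edgeR, beside 70.8% of all tested genes. An unadjusted p below 0.05 was found in 1 of the 4, USP7, and its share over all tested genes was not taken. USP7, the deubiquitinase of MDM2 and p53, had a log2 fold change of -0.10 and an adjusted p of 0.057 from edgeR. DESeq2 called it lower at an adjusted p of 0.043. HUWE1 and TRIM24, both ubiquitin ligases, had log2 fold changes of -0.05 and 0.05. The sign of USP7 and HUWE1 turned with total counts, to 0.05 and 0.10, and HUWE1 was called higher with limma on log2(TPM + 1), at 0.16. TRIM24 was called higher with total counts, at 0.21.

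Relatives and partners of the 9 genes were listed as well. Of 11 tested, 4 were higher (36.4%) and 2 lower (18.2%) with edgeR and TMM, beside 35.5% and 35.3% of all tested genes. With total counts 6 were higher and 1 lower, and the share of all tested genes under that scaling was not taken. TP53INP2, the relative of TP53INP1, rose from 7.18 ± 1.16 to 13.6 ± 0.483 CPM (SD, n = 3 per group), with a log2 fold change of 0.93 (edgeR adjusted p = 3.8e-06), so both genes of that family were higher. In the BTG and TOB family of antiproliferative genes, BTG3 fell by 1.10 on the log2 scale, from 10.2 ± 0.654 to 4.75 ± 0.877 CPM (SD, n = 3 per group), and TOB1 was higher by 0.31. BTG1 and TOB2, at 0.08 and -0.02, did not pass. Of the other sestrins SESN2 was higher by 0.36 on the log2 scale, and SESN3, at -0.21, was called lower with TMM but not with total counts, at -0.05. The ferredoxin genes FDX1 and FDX2, which encode the electron acceptors of FDXR, had log2 fold changes of 0.14 and -0.20 and did not pass. CRYZ, a quinone reductase like TP53I3, was higher by 0.52, and NQO1, at -0.04, did not pass.

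GDF15 and SESN2 are also known targets of ATF4, the transcription factor of the amino acid and endoplasmic reticulum stress response. Of 15 ATF4 targets listed 13 were tested, and 7 were higher (53.8%) and 4 lower (30.8%), beside 35.5% and 35.3% of all tested genes. Their median log2 fold change was 0.36, which is the value of SESN2. The lists are not separate, since SESN2 is also counted as higher among the other p53 targets and among the relatives. SLC7A11, which encodes the cystine transporter, rose from 5.62 ± 0.309 to 17.1 ± 1.33 CPM (SD, n = 3 per group), with a log2 fold change of 1.60 (edgeR adjusted p = 1.5e-09). PSAT1, an enzyme of serine synthesis, fell by 1.33 on the log2 scale, and VLDLR, a lipoprotein receptor, fell by 0.81.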

How the data were processed

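RNA-seq was done on 3 Control and 3 WNK463 samples of MV4-11 cells, grouped by their labels. The authors deposited estimated counts per gene and sample, written as whole numbers without normalization, and TPM values, which are scaled by transcript length and depth. In 62 values the count was 0 and the TPM above 0. The submitters' processing notes name fastp, Bowtie2, HISAT2, StringTie, RSEM, DESeq2 and edgeR, without versions or roles, and GRCh38. The mean TPM per group, the log2 fold change, the p-value and the adjusted p-value that the authors also deposited belong to their own comparison and were not used.

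Counts were tested with edgeR 4.0.16 in R 4.3.3 (TMM factors, default low-count filter, quasi-likelihood test), with Benjamini-Hochberg adjustment over 11973 genes. The SE of a log2 fold change is its size over the square root of F. Alternatives were DESeq2 1.42.0, total counts, 2 other filters, limma 3.58.1 on TPM with pseudocounts of 1 and 0.1, a replicate block, and each sample left out. Only default edgeR, DESeq2 and limma with a pseudocount of 1 were tested on simulated data, with few genes changed and equally in both directions. The other alternatives were not simulated, and the simulation does not cover the scaling of a response this broad. Replicates differed by more than counting noise, at a chi-square of 2.66 to 7.42 per degree of freedom. At the common dispersion replicates varied by 5.21%.

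The 9 genes and the lists were chosen with earlier results of these data known. Named from the lists are genes past the fold limit, otherwise up to 3 per role with the smallest p, all relatives, and the 3 genes nearest MDM2.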

Additional observations from a re-analysis of the deposited data

How the results depend on the processing

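Calls depended on the scaling, the tool and single samples. Total counts shifted the median over the tested genes by 0.15 on the log2 scale, and limma on log2(TPM + 1) and log2(TPM + 0.1) by 0.15 and 0.16. With these 3 settings 0 of the 8 genes were called lower in place of 1, and 2, 0 and 3 passed a log2 fold change of 1 in place of 1. Of the p53 regulators 5, 5 and 5 were higher in place of 3, and 5, 4 and 4 lower in place of 11. Of the relatives 1, 1 and 1 were lower in place of 2. In the same order MDM2 had 0.085, 0.10 and 0.10, PPM1D 0.14, 0.048 and 0.050, USP7 0.053, 0.052 and 0.052, HUWE1 0.10, 0.16 and 0.16, TOB2 0.13, 0.17 and 0.18, and NQO1 0.11, 0.078 and 0.080. FDXR lost its call at -0.095, -0.0057 and -0.0060, with adjusted p-values of 0.34, 0.97 and 0.97. FDX2 turned to 0.092 and 0.099 with limma. MDM4 lost its call with DESeq2 at 0.27 and with limma at 0.28 and 0.29. SESN1 was called at 0.17 with total counts, and was at -6.4e-05 without the low-count filter. PPM1D was at 0.0013 with at least 10 counts in every sample. Past the shift of the median, the cause was not tested. The shares of all tested genes called under the alternatives were not taken.

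With each sample left out in turn, 4 to 5 of the 8 genes were higher, 0 to 2 lower, and 0 to 1 passed the fold limit. The log2 fold changes ran from -0.14 to -0.019 for MDM2, 0.13 to 0.43 for MDM4, -0.011 to 0.038 for SESN1, -0.33 to -0.15 for FDXR, -0.079 to 0.036 for PPM1D, -0.032 to 0.13 for TRIM24, -0.057 to 0.033 for TOB2 and -0.16 to 0.0054 for NQO1. Among the genes named from the lists, 535 of 584 combinations of gene and alternative kept direction and call, 13 lost the call, 10 gained one and 26 changed sign.

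The deviations of same-numbered samples from their group means correlated at 0.01, 0.02 and -0.06. These values show no deviation shared by number, but they cannot exclude that same-numbered samples were handled together. With the replicate block 5 of the 8 genes were higher and 1 lower, as without it, and 2 in place of 3 p53 regulators were higher. With at most 3 mismatches 2 genes had a full p53 site, and with mismatches at any position and no spacer 1 had, in place of 0. The last rule and the overlap of groups in TPM, which gave 4 genes as in CPM, were chosen after seeing the data.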
